A study of Mus musculus with 6 samples.

Results

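The Ifi200 cluster is a run of related interferon-inducible genes on mouse chromosome 1. Of its genes, 8 were taken by symbol (Ifi203, Ifi204, Ifi205, Ifi207, Ifi209, Ifi211, Mndal and Aim2), and all 8 were found among the 34745 genes of the deposited count table. They lie between 173350879 and 174031810 of chromosome 1 in build mm10, a stretch of 681 kb. The mRNA came from wild-type mouse macrophages, cultured from bone marrow in M-CSF at 20 ng/ml. Cells pretreated with a KAT8 inhibitor (3 libraries) were compared with cells pretreated with the solvent DMSO (3 libraries). Both groups were then given R848 at 100 ng/ml for 6 h. R848 (resiquimod) activates the endosomal RNA sensor TLR7, and KAT8 is a lysine acetyltransferase of histone H4. Unstimulated cells were not analysed here, so how far R848 itself induced these genes was not measured. The labels used here give neither the compound, its dose nor the pretreatment time, and they do not say whether libraries came from separate mice.

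The genes encode PYHIN proteins, most of which join an N-terminal pyrin domain, which binds other pyrin domains, to a HIN domain, which binds DNA. AIM2 senses double-stranded DNA in the cytosol and assembles an inflammasome with the adaptor ASC and caspase-1. IFI204 (p204) is a mouse relative of human IFI16 and has been described as a DNA sensor upstream of STING. In macrophages these genes are classical targets of type I interferon, which acts through the interferon-stimulated response element in promoters.

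That element is visible in most of the promoters, and it is shown first as a description. RefSeq (GRCm38.p6, the same build) gave 9 promoters, each from 250 bases before to 50 bases after a start site, for 7 of the 8 genes, and none for Ifi204. The core of the element, GAAA followed by any 2 bases and GAAA again, was searched on both strands. It was found in 5 of these 7 genes (Ifi203, Ifi205, Ifi207, Ifi211 and Mndal), against 3.99% of 27025 genes with a promoter in the table. Some of these promoters are near copies of each other (identities are given below), so the 5 genes are not independent finds. The gamma-activated site, TTC followed by any 3 bases and GAA, was found in none of the 9 promoters, against 9.55% of genes. The windows below run 5′ to 3′ on the gene's own strand, with the core in capitals. Ifi209 and Aim2 lack the core. For Ifi209 the capitals mark 1 of several stretches that differ from it at 1 base. Aim2 has such a stretch on the opposite strand, 51 bases before its start.
Ifi207 (chr1:173741821-173741870, minus strand): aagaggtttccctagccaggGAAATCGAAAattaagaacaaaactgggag
Ifi203 (chr1:173942498-173942547, minus strand): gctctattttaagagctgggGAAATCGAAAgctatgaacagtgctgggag
Mndal (chr1:173880194-173880243, minus strand): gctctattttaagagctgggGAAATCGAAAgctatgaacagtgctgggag
Ifi211 (chr1:173913054-173913103, minus strand): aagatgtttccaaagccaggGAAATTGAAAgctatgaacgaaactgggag
Ifi205 (chr1:174031860-174031909, minus strand): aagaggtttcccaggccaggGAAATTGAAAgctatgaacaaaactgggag
Ifi209 (chr1:173630760-173630809, plus strand): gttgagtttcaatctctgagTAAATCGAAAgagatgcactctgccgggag
Counted from 1 at the 5′ end of the capitals, Ifi211 and Ifi205 carry C6T relative to Ifi207, and the stretch printed for Ifi209 differs by G1T. The core began 41 bases before the annotated start in Ifi207, 35 in Ifi203, 36 in Mndal, 37 in Ifi211 and 134 in Ifi205. The window of Mndal is letter for letter that of Ifi203. A second match, on the opposite strand, began 23 bases after the start of Ifi205, and another start site of Mndal had its own opposite-strand match. The other start site of Ifi203 had no match. A match is a description of letters and was not tested for binding.

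Library totals were 23037820 to 25089320 counts with the inhibitor and 18441352 to 24429778 with DMSO. The members held 16237 to 17465 counts per library with the inhibitor and 15603 to 18782 with DMSO. The lowest count of any member was 375 (Ifi209), so all 8 passed the filter on low counts in both groups. Levels are CPM, counts brought to a common library size with TMM factors. Genes were called at an adjusted p under 0.05 in the quasi-likelihood test of edgeR, adjusted over 13815 tested genes by the Benjamini-Hochberg method. Macrophage markers were present at 7099 to 7182 summed CPM with the inhibitor and 11031 to 12612 with DMSO. Of the 7 markers 5 were called lower, and Cd68 (log2 fold change 0.15) and Csf1r (−0.03) did not pass. Lyz2 alone held 4190 ± 37.1 CPM with the inhibitor and 8596 ± 632 CPM with DMSO (SD, n = 3 each). The sum therefore mostly follows that gene. Stromal markers were also present, at 1648 to 1756 summed CPM with the inhibitor and 4444 to 5208 with DMSO, and 9 of 10 were called lower. Of all tested genes, 26.5% were called lower and 24.9% higher. T and NK cell markers were at 0 to 0.347 CPM with the inhibitor and 0 to 0.174 CPM with DMSO in sum, with Cd3d and Ncr1 at 0. B cell markers summed to 1.12 to 1.25 CPM with the inhibitor and 1.74 to 2.15 with DMSO. Neutrophil markers summed to 1.95 to 2.47 CPM with the inhibitor and 5.25 to 6.04 with DMSO, with Ly6g, S100a9 and Elane at 0. Nearly all of that sum was S100a8, at a mean of 2.10 CPM with the inhibitor and 5.55 with DMSO. Dendritic cell markers summed to 9.34 to 10.2 CPM with the inhibitor and 15.7 to 17.5 with DMSO, with Siglech at 0. Here nearly all of the sum was Zbtb46, at a mean of 9.64 CPM with the inhibitor and 16.8 with DMSO. Flt3, too low to be tested, went the other way, at 0.239 CPM with the inhibitor and 0.0289 with DMSO. The part of these marker differences in the results on the Ifi200 genes was not tested. In bulk RNA, fewer cells of a type and less RNA per cell cannot be told apart.

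The cluster did not move as a block. With the inhibitor 5 of 8 members were lower (Ifi205, Ifi203, Ifi209, Ifi211 and Mndal), Ifi207 was higher, and Ifi204 and Aim2 did not pass. The differences ran from a 2.13-fold fall of Ifi205 to a 1.37-fold rise of Ifi207. Among all tested genes 51.5% were called, 26.5% as lower and 24.9% as higher. That balance depends on the scaling: with library totals 4888 genes were higher and 2842 lower, against 3446 and 3667 with TMM, and the members called were then 1 higher and 4 lower. The median log2 fold change was −0.43 over the members and 0.012 over all tested genes. The groups did not overlap in CPM for the 6 called members, 5 lower and 1 higher, a state found for 60.6% of tested genes (30.3% lower and 30.3% higher). In sum, the 8 genes held 671 ± 46.4 CPM with the inhibitor and 830.2 ± 27.8 CPM with DMSO (SD, n = 3 each).

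**Figure D1:**
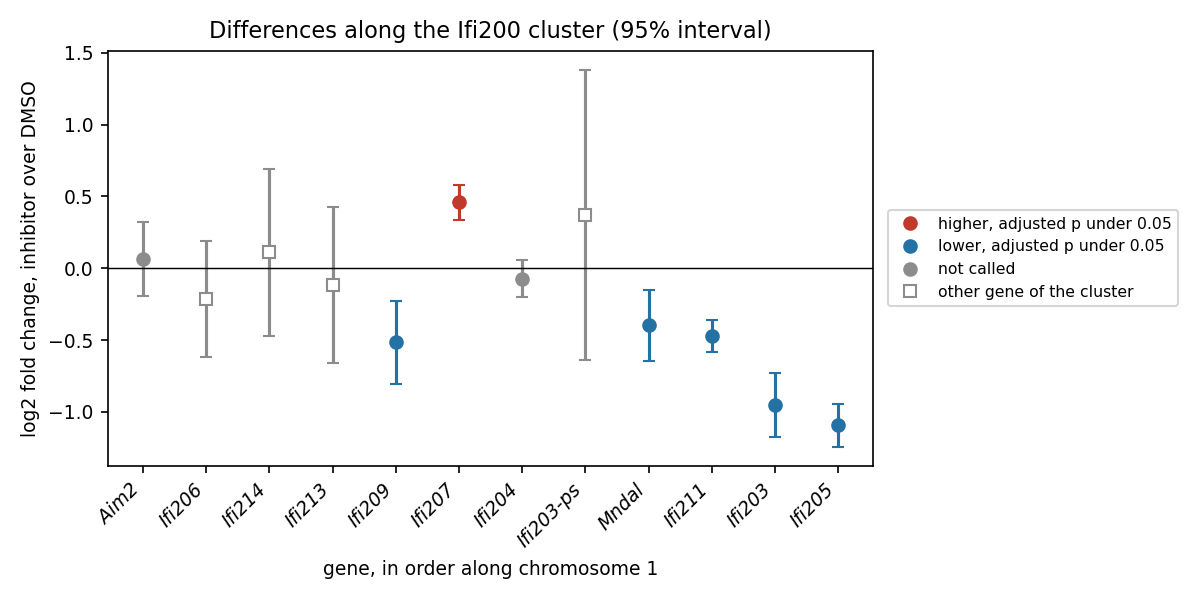
Log2 fold change (y axis, inhibitor over DMSO) of the 8 members (filled circles) and 4 other tested genes of the cluster (open squares), in chromosome order on the x axis, with 95% intervals from the edgeR fit. Ifi207 (0.46) lies above 0, between Ifi209 (−0.52) and Ifi204 (−0.07), and the lowest points are Ifi203 (−0.95) and Ifi205 (−1.09) at the right end.

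Ifi205 encodes p205, which in mouse macrophages has been linked to the expression of ASC, and it had the largest difference of the members. It had 1274, 1410 and 1357 counts with the inhibitor and 2058, 2796 and 2538 with DMSO. Its levels were 49.1, 56.3 and 56.3 CPM with the inhibitor and 113.7, 120.6 and 110.7 CPM with DMSO. Every inhibitor library lay below every DMSO library, at about the same distance. The log2 fold change was −1.09 (SE 0.066, adjusted p = 5.44e-06 by edgeR), and 5.95% of tested genes had a lower one. Ifi205 (ENSMUSG00000054203) is the last gene of the cluster, at 174011998 to 174031810 on the minus strand.

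Ifi203 encodes p203, a nuclear PYHIN protein, and fell 1.94-fold. The gene (ENSMUSG00000039997) lies at 173920407 to 173942672 on the minus strand. Its levels were 79.2, 77.9 and 98.9 CPM with the inhibitor and 178.6, 156.6 and 160.6 CPM with DMSO. Inhibitor replicate 3 was the highest of its group and still far below the lowest DMSO library. The log2 fold change was −0.95 (SE 0.096, adjusted p = 9.11e-05 by edgeR).

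Ifi207 was the only member that rose. Its product has been described in mouse cells as a regulator of STING-dependent DNA sensing and a restrictor of retroviruses. Counts were 5096, 4874 and 5133 with the inhibitor and 2785, 3375 and 3212 with DMSO, which made it the member with the most counts in each inhibitor library. Its levels were 196.3, 194.7 and 213.0 CPM with the inhibitor and 153.9, 145.6 and 140.1 CPM with DMSO. The spread within each group was small beside the gap between them. The log2 fold change was 0.46 (SE 0.054, adjusted p = 0.000207 by edgeR), and 14.2% of tested genes had a higher one. Ifi207 (ENSMUSG00000073490) lies at 173723427 to 173741747 on the minus strand, next to Ifi204. The ratio of Ifi207 to Ifi205 counts, which needs no library scaling, was 4.0, 3.46 and 3.78 with the inhibitor and 1.35, 1.21 and 1.27 with DMSO. This pair was chosen as the extremes, so the ratio is a description.

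The promoters of Ifi207 and Ifi205, the pair chosen as the extremes, are printed in full as a description. The core began 41 bases before the annotated start in Ifi207 and 134 in Ifi205. The part of promoter letters in the differences was not tested. Ifi207 and Ifi205 were identical at 88.7% of 204 aligned bases, and Ifi211 and Ifi205 at 94.0% of 201. Mndal and Ifi203 were identical at 97.6% of 289 aligned bases at the start sites shown above. Capitals mark the core on either strand.
Ifi207 (chr1:173741760-173742059, minus strand): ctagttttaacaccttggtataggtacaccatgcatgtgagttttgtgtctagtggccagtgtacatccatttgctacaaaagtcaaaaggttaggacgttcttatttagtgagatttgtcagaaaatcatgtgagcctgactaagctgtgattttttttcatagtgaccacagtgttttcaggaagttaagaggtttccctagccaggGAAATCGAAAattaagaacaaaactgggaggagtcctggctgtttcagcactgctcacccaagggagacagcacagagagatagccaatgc
Ifi205 (chr1:174031706-174032005, minus strand): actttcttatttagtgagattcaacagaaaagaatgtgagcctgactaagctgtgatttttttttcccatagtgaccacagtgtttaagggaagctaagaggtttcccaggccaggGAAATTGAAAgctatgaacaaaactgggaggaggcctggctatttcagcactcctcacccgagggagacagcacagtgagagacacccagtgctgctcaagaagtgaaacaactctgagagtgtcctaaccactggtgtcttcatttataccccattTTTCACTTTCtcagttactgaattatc

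Ifi211, Ifi209 and Mndal fell by less. Ifi211 (ENSMUSG00000026536, 173896345 to 173913046, minus strand) had 114.1, 111.9 and 122.6 CPM with the inhibitor and 165.2, 158.3 and 159.4 CPM with DMSO. The groups were well apart, and the log2 fold change was −0.47 (SE 0.048, adjusted p = 9.62e-05 by edgeR). Ifi209 (ENSMUSG00000043263, 173630917 to 173647928, plus strand) is one of the members with few counts, at 17.4, 15.0 and 21.2 CPM with the inhibitor and 28.0, 24.5 and 24.3 CPM with DMSO. Its inhibitor libraries were widely spread but all below DMSO, and it fell by 0.52 on the log2 scale (SE 0.13, adjusted p = 0.00952). Mndal, whose product has been described as a DNA-binding inhibitor of cell growth in mouse cells, had 41.6, 43.3 and 51.9 CPM with the inhibitor and 62.9, 52.4 and 65.1 CPM with DMSO. The groups nearly met, inhibitor replicate 3 being just under DMSO replicate 2. Its log2 fold change was −0.40 (SE 0.11, adjusted p = 0.0143), and the call did not hold without inhibitor replicate 1 (adjusted p = 0.0506), without inhibitor replicate 2 (0.0506), without DMSO replicate 3 (0.0522) or with library totals as the scaling (0.0589). Mndal (ENSMUSG00000090272) is annotated from 173849126 to 173942491 on the minus strand and spans Ifi211 and part of Ifi203, but its exons share only 37 bases with Ifi203 and none with Ifi211.

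Ifi204 and Aim2, the members best known as DNA sensors, did not pass. Ifi204 (ENSMUSG00000073489, 173747293 to 173766943, minus strand) had 119.8, 126.9 and 137.6 CPM with the inhibitor and 137.7, 133.8 and 132.5 CPM with DMSO. The groups overlapped, and the log2 fold change was −0.07 (95% interval −0.20 to 0.06, adjusted p = 0.311 by edgeR). Aim2 (ENSMUSG00000037860, 173350879 to 173466040, plus strand) had 23.3, 22.5 and 23.2 CPM with the inhibitor and 22.1, 18.4 and 25.6 CPM with DMSO. The inhibitor libraries were nearly equal and lay inside the range of the DMSO libraries. The log2 fold change was 0.07 (95% interval −0.19 to 0.32, adjusted p = 0.656). The intervals leave room for differences up to these bounds.

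**Figure D2:**
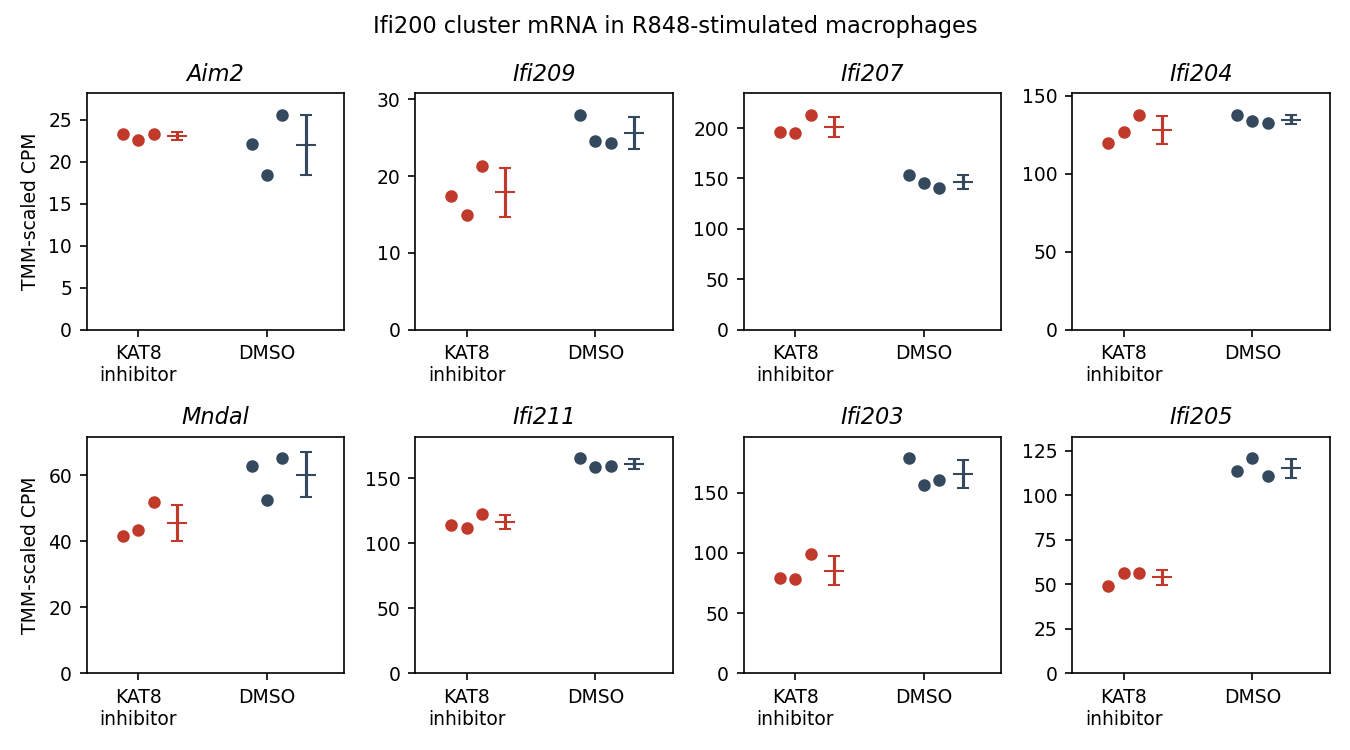
TMM-scaled CPM (y axis, from 0, a scale of its own in each panel) of the 8 members in chromosome order, with 1 point per library, and the mean and SD of 3 libraries beside the points. Inhibitor libraries are left of DMSO libraries; they lie above them for Ifi207, below them for Ifi205, Ifi203, Ifi211, Ifi209 and Mndal, and among them for Aim2. For Ifi204, 2 of 3 inhibitor libraries lie below every DMSO library and 1 lies among them.

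Expressed as a share of the 8 genes' counts, which does not depend on how libraries are scaled, Ifi207 made up 30.6%, 30.0% and 29.4% with the inhibitor and 17.8%, 17.97% and 17.1% with DMSO. Ifi203 made up 12.7 ± 0.861% with the inhibitor and 19.9 ± 0.729% with DMSO, and Ifi205 8.04 ± 0.563% with the inhibitor and 13.9 ± 0.898% with DMSO (SD, n = 3 each). The share of Ifi204 was 19.1 ± 0.446% with the inhibitor and 16.2 ± 0.268% with DMSO, and that of Aim2 3.44 ± 0.220% with the inhibitor and 2.65 ± 0.432% with DMSO. Ifi211 made up 17.3 ± 0.449% with the inhibitor and 19.4 ± 0.202% with DMSO, and Ifi209 2.65 ± 0.316% with the inhibitor and 3.08 ± 0.144% with DMSO. For these 7 genes the groups did not overlap, and each two-sided exact permutation test gave p = 0.1, the smallest that 3 libraries against 3 allow. Only Mndal overlapped, at 6.78 ± 0.343% with the inhibitor and 7.24 ± 0.749% with DMSO (exact permutation p = 0.5). Shares sum to a fixed total, so they are not independent of each other, and the rise of 12.4 points in Ifi207 alone moves the rest. Any such separation of 3 libraries from 3 gives an exact permutation p of 0.1. In CPM the groups overlapped for Ifi204 and Aim2. How often shares separate in other sets of genes was not measured. In CPM, 60.6% of all tested genes had groups that did not overlap. Without Ifi207 and Ifi209 in the sum, the difference was 1.27 percentage points for Ifi211, against −2.07 with them, and 0.94 for Mndal, against −0.46. For Ifi204 it was 7.87 points, against 2.85, and for Aim2 1.77, against 0.79.

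**Figure D3:**
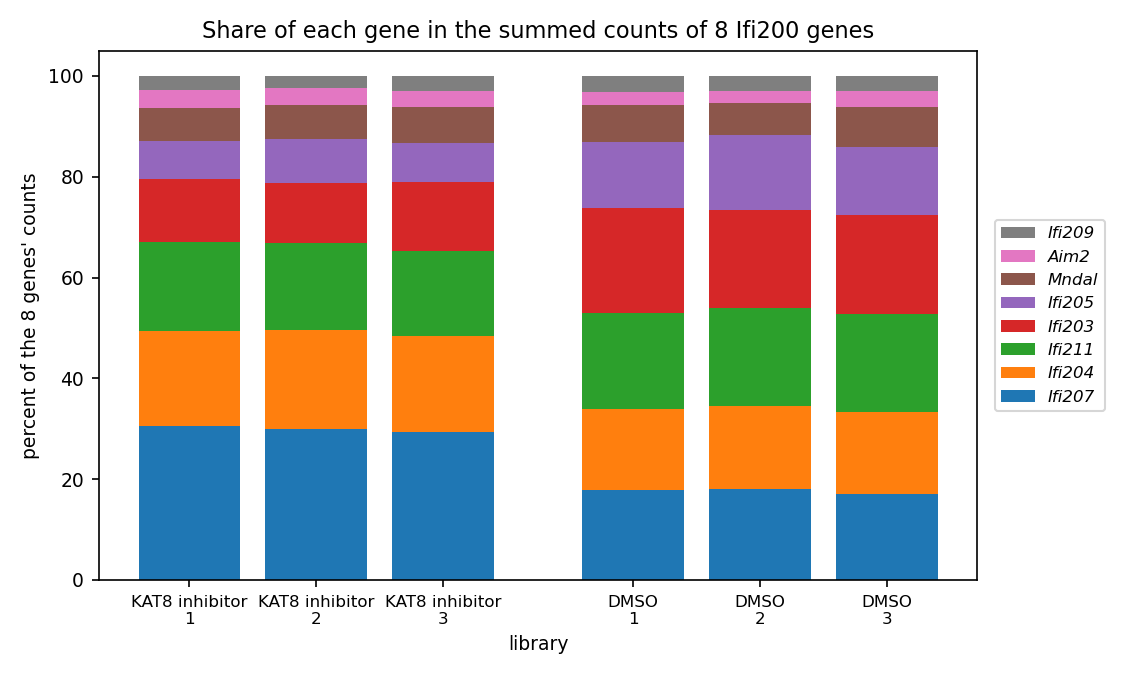
Stacked bars of each gene's percent (y axis) of the summed counts of the 8 members in each library (x axis), inhibitor libraries on the left. The lowest segment, Ifi207, reaches 29.4% to 30.6% with the inhibitor and 17.1% to 17.97% with DMSO.

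Levels can be compared between genes only per length of exon. On the scale of CPM per kb of annotated exon, the order with the inhibitor was Ifi211 (65.1 ± 3.15), Ifi207 (58.8 ± 2.96), Ifi204 (36.0 ± 2.52), Ifi205 (12.9 ± 1.00), Ifi203 (12.7 ± 1.75), Mndal (12.6 ± 1.52), Aim2 (6.58 ± 0.126) and Ifi209 (5.04 ± 0.891). Ifi205, Ifi203 and Mndal did not differ from each other beyond their spread. With DMSO the order was Ifi211 (90.2 ± 2.07), Ifi207 (42.8 ± 2.03), Ifi204 (37.8 ± 0.765), Ifi205 (27.5 ± 1.22), Ifi203 (24.6 ± 1.74), Mndal (16.6 ± 1.88), Ifi209 (7.22 ± 0.576) and Aim2 (6.29 ± 1.02). There, the libraries of Ifi205 and Ifi203 overlapped, as did those of Ifi209 and Aim2. These are levels and not differences, and they rest on the summed length of all annotated exons of a gene. That length was 1.785 kb for Ifi211 and 3.422 to 6.706 kb for the other members. The top rank of Ifi211 is uncertain, as much of its sequence is shared with Ifi205 and Ifi204 (values below).

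How far reads of one member could be counted for another was measured on the GENCODE M21 transcripts. Aim2 shared none of its windows of 100 bases with another gene, and Ifi207, the riser, shared 0.790% (7.29% of windows of 50 bases). The shares were 2.84% for Ifi203, 6.38% for Mndal, 10.7% for Ifi204, 15.0% for Ifi205 and 16.9% for Ifi209, the last with Ifi214. With windows of 50 bases they were 12.4% for Ifi203, 19.6% for Mndal, 20.02% for Ifi204, 18.6% for Ifi205, 33.7% for Ifi209, 72.8% for Ifi211 and 0.742% for Aim2. The read length is not given in the sources used here. With windows of 100 bases Ifi211 shared 56.9%, mostly with Ifi205 (37.2% of its windows) and Ifi204 (19.6%). The split of counts among these 3 genes is therefore uncertain, most of all for Ifi211, as Ifi205 and Ifi204 shared less of their own windows. With Ifi205 and Ifi211 counted as 1 gene, the sum fell to 170.1 ± 8.02 CPM with the inhibitor, against 276 ± 5.13 CPM with DMSO (SD, n = 3 each), which is −0.70 on the log2 scale (SE 0.046, adjusted p = 9.41e-06 by edgeR). With Ifi204 and Ifi211 counted as 1 gene the log2 fold change was −0.28 (adjusted p = 0.00214 by edgeR). Ifi204 alone did not pass, while Ifi211 alone did (−0.47). These sums were formed after the data were seen. Ifi203 with its pseudogene Ifi203-ps (−0.95, adjusted p = 8.92e-05) and Ifi209 with Ifi214 (−0.49, adjusted p = 0.00959) were close to Ifi203 and Ifi209 alone.

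The other genes of the cluster were barely measured. Ifi206, Ifi213, Ifi214 and Ifi203-ps had 6 to 84 counts per library, and none of the 4 passed. Ifi202b, a HIN-domain protein gene whose product restrains AIM2 in mouse strains that express it, had no counts with the inhibitor and 0, 2 and 0 counts with DMSO. Ifi208 had 0, 1 and 0 counts with the inhibitor and 0 in each DMSO library. Just outside the cluster, Cadm3 lies across the upstream part of Aim2 as annotated by GENCODE, on the opposite strand without sharing exons. It ends at 173367695, before the RefSeq promoter of Aim2 searched above, which begins at 173420354. Cadm3 had 37, 33 and 39 counts with the inhibitor and 122, 108 and 167 with DMSO. It was called lower, with a log2 fold change of −2.09. Ackr1, next to it, was also called lower (−2.60), with 2, 3 and 2 counts with the inhibitor and 12, 11 and 15 with DMSO. On the other side of the cluster Olfr433 did not pass (−0.36).

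Genes of interferon signalling were lower in part. Of 12 tested, 7 fell, none rose and 5 did not pass (median log2 fold change −0.18, against 0.012 for all tested genes, of which 26.5% fell and 24.9% rose). Scaled by library totals, 4 fell and 1 rose. Stat2, a transcription factor of the type I interferon response, fell to 79.2 ± 9.0 CPM with the inhibitor, against 131 ± 9.93 CPM with DMSO (SD, n = 3 each), a difference of −0.73 on the log2 scale. Ifnar1, a chain of the type I interferon receptor, fell by 0.43. Ifnar2, the other chain, and the regulators Irf1, Irf7 and Irf8 fell by 0.19, 0.29, 0.32 and 0.16. Irf9, whose product is part of a factor that binds the response element, was at 65.1, 64.3 and 64.5 CPM with the inhibitor and 58.8, 65.2 and 61.1 CPM with DMSO and did not pass (log2 fold change 0.07). The kinases Jak1 (−0.014) and Tyk2 (−0.0034) and the regulators Irf3 (−0.10) and Irf5 (0.29) did not pass either.

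Of 30 other interferon-stimulated genes 11 fell, 1 rose and 18 did not pass, with a median log2 fold change of −0.29. The share that fell, 36.7%, compares with 26.5% of all tested genes, and the count depended on single libraries. Those with the smallest p were Ifi35 (−0.51), Bst2 (tetherin, −0.43), Slfn8 (−0.82) and the antiviral GTPase gene Mx1 (−0.86). The riser, named after its value was seen, was Rsad2 (0.49), which encodes viperin. Inhibitor replicate 3 had the highest CPM of its group for all 30 of these genes and for 6 of the 8 members. Without that library 19 of the 30 fell and 1 rose, whereas without inhibitor replicate 1 or 2 the number that fell was 7. The Ifi200 calls did not change without inhibitor replicate 3: Ifi207 had a log2 fold change of 0.42 and Ifi205 one of −1.13. Among the DMSO libraries, replicate 1 was the highest for 22 of the 30 genes and 5 of the 8 members. Without DMSO replicate 1, 8 of the 30 fell.

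Of 15 genes of cytosolic DNA sensing 9 fell, 1 rose and 5 did not pass (median −0.41), beside 26.5% lower and 24.9% higher among all tested genes. The list also holds genes of nucleic acid breakdown and DNA-binding proteins, so the count is not one of sensors alone. Cgas did not pass (log2 fold change 0.09, adjusted p = 0.671 by edgeR), and Sting1 fell by 0.37 (adjusted p = 0.00144 by edgeR). Both were named after their values were seen. Samhd1, which encodes a hydrolase of deoxynucleotides, fell by 0.68 on the log2 scale, the Z-nucleic acid sensor gene Zbp1 by 0.75 and the DNA-binding alarmin gene Hmgb1 by 0.59. Trex1, the main cytosolic DNA exonuclease, fell to 6.58 ± 3.22 CPM with the inhibitor, against 44.5 ± 6.44 CPM with DMSO (SD, n = 3 each), but all of its exon bases also belong to Atrip on the same strand. The riser, named after its value was seen, was the kinase gene Tbk1 (0.13, adjusted p = 0.0228), and that call was lost without inhibitor replicate 1, inhibitor replicate 3 or DMSO replicate 3. The part of the lower stromal markers in these counts was not tested.

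Of 9 tested genes of inflammasomes and their outputs, not all of which act with AIM2, 3 rose, 3 fell and 3 did not pass (median 0.05). The share of the list was 33.3% in each direction, near the 24.9% higher and 26.5% lower of all tested genes. Casp4, the sensor of intracellular lipopolysaccharide, rose to 110.3 ± 3.76 CPM with the inhibitor, against 65.1 ± 3.19 CPM with DMSO, and Casp1, the effector protease of the inflammasome, to 124.8 ± 0.710 CPM with the inhibitor, against 97.9 ± 2.24 CPM with DMSO (SD, n = 3 each). Gsdme, a pore-forming gasdermin gene, rose by 1.28 on the log2 scale. The cytokine substrates fell, Il18 to 4.21 ± 0.557 CPM with the inhibitor, against 16.2 ± 2.45 CPM with DMSO, and Il1b by 0.69 on the log2 scale (SD, n = 3 each). Pycard, which encodes ASC, passed by a narrow margin (−0.16, adjusted p = 0.0498 by edgeR), and the number that fell was 2 without any single library other than DMSO replicate 1. Gsdmd (0.05), Casp8 (−0.09) and Ninj1 (0.07) did not pass.

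**Figure D4:**
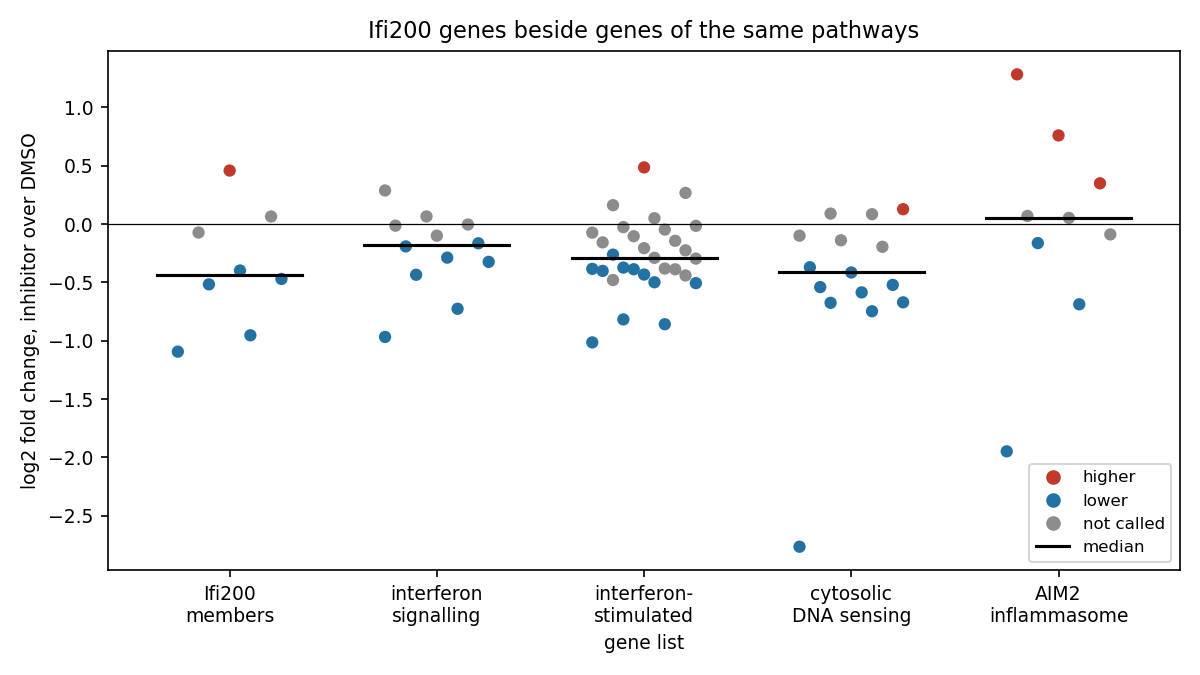
Log2 fold change (y axis, inhibitor over DMSO) of each tested gene in the Ifi200 members and 4 pathway lists (x axis), coloured by call, with the median of each list as a line. The medians are −0.43, −0.18, −0.29, −0.41 and 0.05, and each list but that of interferon signalling holds genes called in both directions.

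For the called members, the genes with the most similar pattern were sought among the 10473 genes whose mean level reached 5 CPM. Likeness was the root mean square difference of log2 CPM, centred on the mean of the 6 libraries. The nearest were Aplp1 for Ifi205 (0.049), Atp9a for Ifi203 (0.061), Stx16 for Ifi207 (0.015), Brd9 for Ifi211 (0.019), Spats2 for Ifi209 (0.062) and Nos2 for Mndal (0.050). None of these is a PYHIN gene. The nearest other member ranked 223rd for Ifi205 (Ifi203), 204th for Ifi203 (Ifi205), 51st for Ifi209 (Ifi211), 106th for Mndal (Ifi211), 869th for Ifi211 (Mndal) and 4942nd for Ifi207 (Aim2). With 6 libraries in 2 groups, such likeness is mostly the size of the group difference, and it is a description.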

How the data were processed

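RNA-seq libraries were made from mRNA, per the labels' protocols, and the authors deposited their counts unnormalized, by Ensembl gene, in 1 table. The tools named are StringTie 1.3.0, HISAT2 and edgeR, with build mm10, per the submitters' processing notes. Counter, annotation, multi-mapping rule and strand setting were not given in the sources used here. Gene symbols, coordinates (1-based) and exon lengths are from GENCODE M21 of the same build.

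Groups were taken from the sample titles. Whether replicates share a mouse or culture is not stated, so the p-values cover only spread among these libraries, possibly technical. Libraries of a group differed beyond sampling noise (chi-square per degree of freedom of 8.77 to 13.5), so none was a copy of another. Tests were run with edgeR 4.0.16 under R 4.3.3 (quasi-likelihood, TMM, filterByExpr with a minimum count of 10, pretreatment as the only factor), and SE is |log2 fold change| divided by the root of F. A count of 0 allowed up to 0.12 to 0.163 CPM of the library total, before TMM scaling (3 counts), for counting error only. The procedure was also run on simulated counts in which far fewer genes changed than were called here. That run therefore cannot give the error rate in these data. Shares were compared by exact permutation (scipy 1.17.1).

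The 8 members, the gene lists and the alternatives were chosen with earlier results of these data known. All members were named, with every gene of lists of 12 or fewer and the 4 smallest p of longer lists, except 1 gene of interferon signalling that is not reported here; Sting1 is listed as Tmem173. Alternatives were median-of-ratios factors, library totals, no filter, genes averaging 5 CPM or more, DESeq2 1.42.0, a replicate block, a threshold of 0.01, and omission of each library. Counting near-identical copies as 1 gene was added after the data were seen.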

Additional observations from a re-analysis of the deposited data

How the results depend on the processing

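Ifi203, Ifi205, Ifi207, Ifi209 and Ifi211 kept their direction and call under all 13 alternatives of scaling, filter, test, block, threshold and single libraries left out, with log2 fold changes of −1.07 to −0.84, −1.13 to −0.98, 0.42 to 0.57, −0.66 to −0.40 and −0.51 to −0.36. Mndal ranged from −0.50 to −0.29 and was not called with library totals (−0.29) or at adjusted p under 0.01 (−0.40), and leaving out single libraries gave −0.50 to −0.33. Ifi204, not called, was 0.037 with library totals and −0.13 to −0.02 without single libraries. The sum of Ifi204 and Ifi211 was called lower (−0.28), as was Ifi211 alone (−0.47). Aim2, not called, was −0.055 to 0.18 without single libraries, the lower value being that without DMSO replicate 2. Library totals moved the median of all tested genes to 0.122, against 0.0122 with TMM. The members called lower were 4 to 5 and those called higher 1 throughout.

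With library totals, 4 genes of interferon signalling fell and 1 rose, and 3 interferon-stimulated genes rose. At adjusted p under 0.01, 4 genes of interferon signalling, 7 interferon-stimulated genes and 0 risers of DNA sensing were called, and 2257 of all tested genes were higher, against 3446. DESeq2 gave 0 risers of DNA sensing (1 in edgeR) and 2 of the interferon-stimulated genes. Leaving out single libraries gave 5 to 7 lower and 0 to 1 higher genes of interferon signalling, 7 to 19 lower and 1 to 2 higher interferon-stimulated genes, and 0 to 1 higher genes of DNA sensing. The cause was not tested. With Ifi207 and Ifi209 left out of the sum, the differences in share were −6.28 percentage points for Ifi203, 7.87 for Ifi204, 1.27 for Ifi211, 0.94 for Mndal and 1.77 for Aim2, against −7.22, 2.85, −2.07, −0.46 and 0.79 with all 8 genes; the sum has fewer genes. Leaving out single libraries gave differences of 12.1 to 12.7 points for Ifi207, −0.85 (without DMSO replicate 2) to −0.10 (without DMSO replicate 3) for Mndal and −0.57 to −0.26 (without inhibitor replicate 2) for Ifi209.

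With the replicate number as a block, 5 members were lower and 1 higher, the riser of DNA sensing was lost (0), and 3215 genes were higher and 3510 lower, against 3446 and 3667. Libraries with the same number did not deviate together (correlations −0.034, −0.0030 and 0.024). These correlations cannot tell whether such libraries share a mouse or culture. Depth limits Ifi202b and Ifi208, at 0 to 2 counts.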
